A study of Mus musculus with 8 samples.

Results

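The CD4 versus CD8 lineage genes are 8 genes that T cells use to become and remain CD4+ or CD8+ cells. They are the coreceptor genes Cd4, Cd8a and Cd8b1 and the regulators Zbtb7b, Runx1, Runx3, Cbfb and Tox. They were chosen by name and function, and all 8 were found among the 28239 gene symbols of the count table. The table comes from MACE-seq, an assay that counts sequence tags from the 3′ ends of transcripts, in regulatory T cells (Tregs), with 4 libraries labelled Alox15-/- and 4 labelled WT. Alox15 encodes 15-lipoxygenase, an enzyme that makes lipid mediators from polyunsaturated fatty acids, and the study asked how its loss alters Treg differentiation. The labels give the strain background of every library as C57BL/6, and the mice were 10 to 12 weeks old and of both sexes, with the sex of each library not given in the sources used here. WT mice came from Charles River and the Alox15-deficient mice from The Jackson Laboratory, so that genotype and supplier cannot be told apart. Naïve CD4+ T cells were taken from spleens by removing other cells with magnetic beads, and were cultured for 2 days with IL-2, TGF-β and beads carrying antibodies to CD3 and CD28. The labels name the CD4+ lymphocytes and the Treg subtype.

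The CD4 and CD8 proteins are coreceptors that bind MHC class II and class I molecules beside the T cell receptor, and a mature αβ T cell normally keeps only 1 of them. During selection in the thymus the zinc finger factor ThPOK, the product of Zbtb7b, holds cells in the CD4 lineage and represses CD8 lineage genes. RUNX proteins bound to their partner CBFβ do the reverse, since RUNX3 silences Cd4 and Zbtb7b in CD8 lineage cells, and RUNX1 acts in the silencing of Cd4 in cells that carry neither coreceptor. TOX, an HMG-box protein, is needed earlier for CD4 lineage cells to form. In peripheral CD4+ cells ThPOK keeps the CD8 programme shut, and RUNX1 with CBFβ also takes part in the expression of Foxp3, the defining factor of Tregs.

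The members lie on 5 chromosomes of GRCm38 (GENCODE M21), and 0 of them are on the chromosome that carries Alox15. Cd8b1 (ENSMUSG00000053044.8, chr6:71322788-71337494) and Cd8a (ENSMUSG00000053977.13, chr6:71373427-71379173) lie 35.9 kb apart on the plus strand, with other genes annotated between them. Cd4 (ENSMUSG00000023274.14, chr6:124864692-124888221) is on the minus strand of the same chromosome. Zbtb7b (ENSMUSG00000028042.15) spans chr3:89377644-89394776 on the minus strand. Runx3 (ENSMUSG00000070691.10, chr4:135120652-135177990, plus strand) shares its chromosome with Tox (ENSMUSG00000041272.11, chr4:6686353-6991557, minus strand). Runx1 (ENSMUSG00000022952.17) is at chr16:92601466-92826149 on the minus strand and Cbfb (ENSMUSG00000031885.14) at chr8:105170674-105217989 on the plus strand. Each position covers the whole gene with its exons, introns and UTRs.

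RUNX proteins read a short DNA core, ACCACA or ACCGCA, and the promoters of the members were searched for it on both strands because several members encode or answer to RUNX proteins. Promoters were the 300 bases around each start in RefSeq (GRCm38.p6), and 5 members had an entry. At least 1 core was found in 22.4% of the 32851 promoters, and among the members in 1 of 2 promoters of Zbtb7b, Runx3 and Runx1 and in the promoter of Cd8a, while the Cbfb promoter had 0. Runx1 and Runx3 each held a pair of ACCACA cores whose first bases are 8 bases apart. This pair with the bases ga between its cores, read on either strand, was found in 4 promoters (0.0122%). They were those of Runx1, Runx2, Runx3 and Gm16225, a transcript that starts beside Runx3 in the opposite direction. Pairs with other bases between the cores were not counted. The 4 windows below are shown because they hold the cores of the members, which are in capitals, and TGTGGT is ACCACA read on the other strand. They are written 5′ to 3′ on the strand of each gene, and positions are counted from the first transcribed base as 1.
Runx3, chr4:135120503-135120532, plus strand, -142 to -113: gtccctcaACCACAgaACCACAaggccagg
Runx1, chr16:92826025-92826054, minus strand, 21 to 50: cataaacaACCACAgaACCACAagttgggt
Zbtb7b, chr3:89387743-89387772, minus strand, -101 to -72: ctggcgaggaacTGTGGTatgtgagtgggt
Cd8a, chr6:71373447-71373476, plus strand, 21 to 50: ccccgaccctacacgcctcccccACCGCAc
The core next to the bases ga and a second core is shared letter for letter by the Runx3 and Runx1 windows, and the Cd8a window holds the other form of the core, ACCGCA. A match is a run of letters, and RUNX binding was not measured in these cells.

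The authors deposited raw counts, with library totals between 3723151 and 6952596 (median 4794416) in the libraries labelled Alox15-/- and between 4810125 and 9538962 (median 6417785) in those labelled WT. Levels are given as CPM, counts relative to library size on a scale common to all genes, with TMM factors from edgeR. The number of tags sets their counting error, to which the spread between libraries adds. Over all 8 libraries Cd4 rested on 14604 counts, Cbfb on 10308, Runx3 on 6033, Zbtb7b on 3545, Runx1 on 3320, Tox on 1039, Cd8b1 on 672 and Cd8a on 469. The targeted gene, Alox15, had means of 66.8 ± 3.18 CPM under the label Alox15-/- and 5.28 ± 3.59 CPM under the label WT (SD, n = 4 each), and a log2 fold change of 3.65 (standard error 0.299, adjusted p = 1.08e-05, edgeR). Its level was thus higher under the label of the deletion. The sources used here do not say which part of the gene is deleted, and a tag from the 3′ end may lie outside it, so this level does not check the labels. All differences are written as the level under the label Alox15-/- minus or over that under the label WT. The study gives as many Alox15-/- mice as there are libraries with that label, and no number of WT mice for this assay. Where libraries share a mouse, p-values measure a spread that may be technical.

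None of the 8 members passed an adjusted p of 0.05 in edgeR's quasi-likelihood test, a level that 158 of the 12700 genes tested passed (1.24%). All 8 members had passed the filter of at least 2 CPM in at least 4 libraries, as did 45.0% of the symbols. The 3 coreceptor genes had the members' most negative log2 fold changes, between -0.69 and -0.32, and all 3 had an unadjusted p under 0.05. Across all genes tested, 3.38% were lower with an unadjusted p under 0.05. The 5 regulators had log2 fold changes between -0.17 and 0.18, and each of their 95% intervals included 0. The median over the 8 members was -0.09, beside -0.01 over all genes tested.

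**Figure D1:**
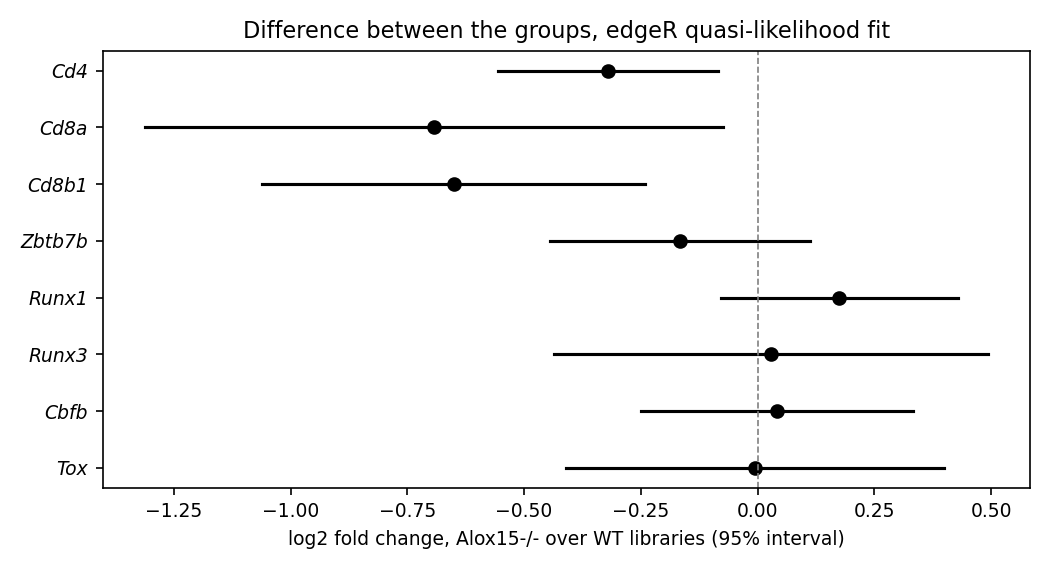
Log2 fold change of each of the 8 genes (libraries labelled Alox15-/- over those labelled WT, edgeR) on the x axis, with points for the estimates and lines for 95% intervals. Cd4, Cd8a and Cd8b1 lie below 0 with their whole interval, and the intervals of the 5 regulators cross 0, while 0 of the 8 passed the adjusted threshold.

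Cd4 was the most abundant of the coreceptor transcripts in tags. It stood at 295.5, 208.7, 276.7 and 288.2 CPM in the libraries labelled Alox15-/- 1 to 4, and at 327.5, 332.7, 326.2 and 350.1 CPM in WT 1 to 4. Every library labelled Alox15-/- was below every WT library, and library 2 was the lowest. Groups without overlap in this direction were found for 2.5% of all genes tested, and Cd4 was the only member among them. The means were 267 ± 39.8 CPM (SD, n = 4) and 334 ± 11.0 CPM (SD, n = 4), so that the spread relative to the mean was 14.9% under the label Alox15-/- and 3.30% under WT. Cd4 had a log2 fold change of -0.32 (standard error 0.110, 95% interval -0.55 to -0.09), a fold of 0.801. Its unadjusted p was 0.0107 and its adjusted p 0.358 in edgeR's test, and the two-sided exact permutation test over libraries gave p = 0.0286, the smallest that 4 libraries against 4 can give. The estimate was -0.22 without the library labelled Alox15-/- 2, with an adjusted p of 0.718 in edgeR's test. In bulk RNA, fewer cells of a type and less RNA per cell cannot be told apart, and this holds for every level given here.

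Cd8a encodes the α chain of CD8, which can pair with itself or with the β chain. In the libraries labelled Alox15-/- it was at 9.61, 8.91, 8.84 and 2.86 CPM, and in those labelled WT at 12.9, 9.08, 13.3 and 11.7 CPM. The WT library 2 overlapped the other group, and the library labelled Alox15-/- 4 was apart from its 3 companions. It rested on 20 counts, where the others of its group had 33 to 47, and its 95% Poisson interval of 1.75 to 4.42 CPM lay below those of the other 3, which began at 6.13 CPM or more. Such intervals cover counting error only. The means were 7.56 ± 3.15 CPM (SD, n = 4) and 11.8 ± 1.92 CPM (SD, n = 4). The log2 fold change was -0.69 (standard error 0.290, 95% interval -1.31 to -0.07), with an unadjusted p of 0.0305 and an adjusted p of 0.561 in edgeR's test. The exact permutation test gave p = 0.0571. Without the library labelled Alox15-/- 4 the log2 fold change was -0.37 (unadjusted p = 0.0900, edgeR).

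Cd8b1 encodes the CD8 β chain, which is found on conventional CD8+ T cells as the partner of the α chain. Its levels were 11.8, 8.37, 13.0 and 9.16 CPM in the libraries labelled Alox15-/- and 17.0, 12.3, 18.3 and 19.0 CPM in those labelled WT. The groups overlapped by the library labelled Alox15-/- 3, which was above WT 2, and the other 3 WT libraries were above all of the other group. The means of 10.6 ± 2.17 CPM and 16.6 ± 3.02 CPM (SD, n = 4 each) gave a log2 fold change of -0.65 (standard error 0.192, 95% interval -1.06 to -0.24). Cd8b1 had the lowest p of the members, 0.00407 unadjusted and 0.206 adjusted over all genes in edgeR's test, with p = 0.0571 in the exact permutation test. Without the filter on low counts its adjusted p was 0.0430 and its log2 fold change -0.67 (edgeR), the only setting tried in which a member passed the threshold. The fit without the filter also gave Il2 an adjusted p of 1.67e-05 (edgeR), although the negative Il2 estimate rested on a single WT library, as given with the helper genes.

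**Figure D2:**
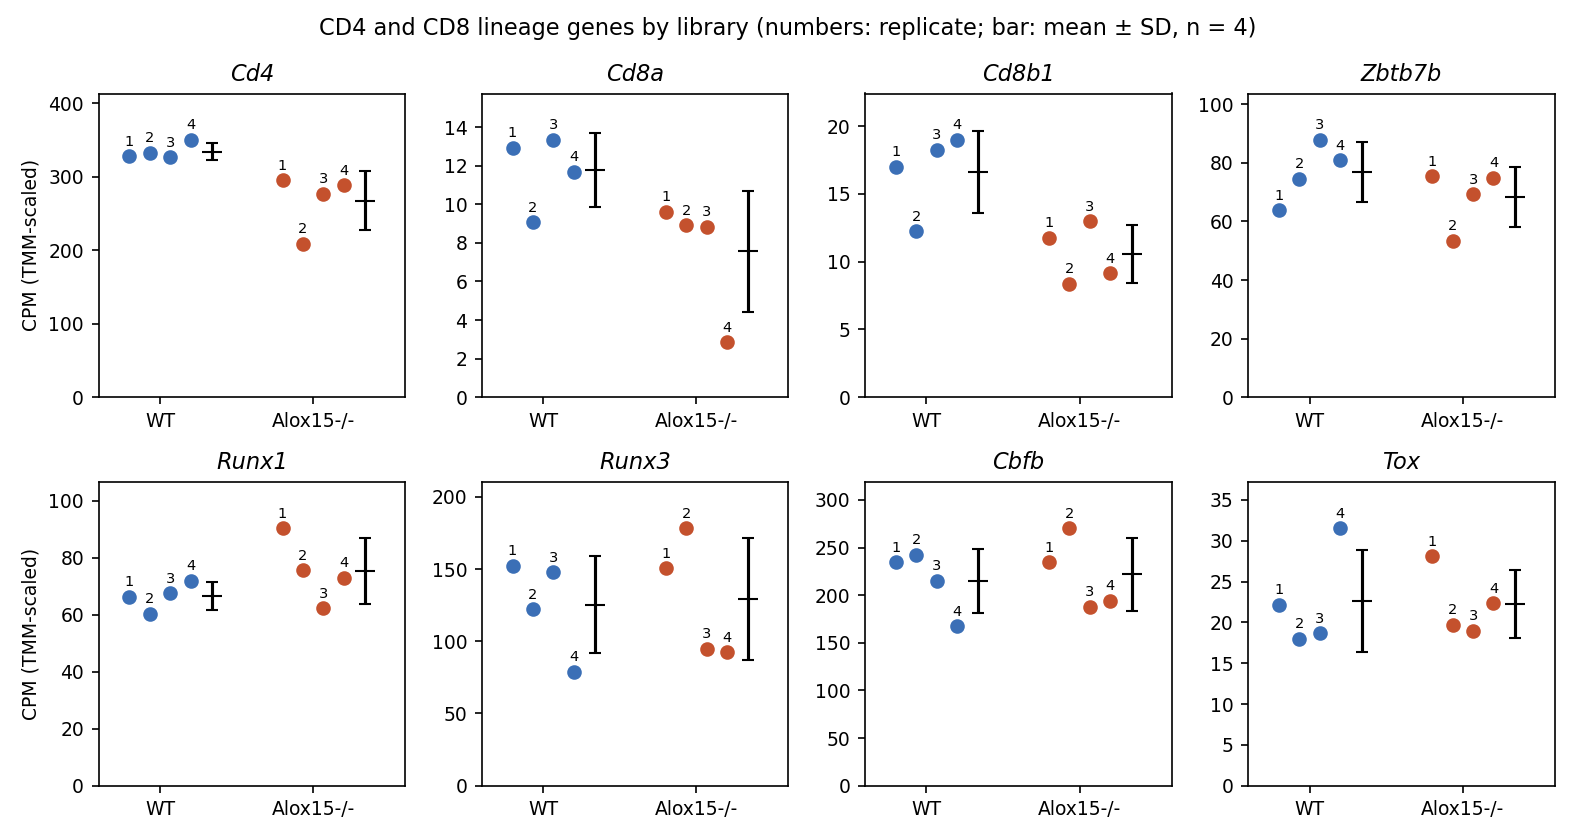
Level of each of the 8 genes (CPM, TMM scaled, y axis from 0) in the 8 libraries, with a point per library carrying its replicate number and bars for the mean and SD of each group (n = 4). Cd4 is the only gene whose groups do not overlap, the Cd8a value of the library labelled Alox15-/- 4 is 2.86 CPM, and the regulators overlap.

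Cd4 and CD8 transcripts were also set against each other within each library, where library size cancels. The 2 sums come from different genes, so the ratio is compared between libraries and is no ratio of molecules. Cd4 counts divided by the sum of Cd8a and Cd8b1 counts were 13.8, 12.1, 12.7 and 24.0 in the libraries labelled Alox15-/- and 10.9, 15.6, 10.3 and 11.4 in those labelled WT. The mean log2 ratio was higher by 0.33 in the libraries labelled Alox15-/-, and the groups overlapped. Without the library labelled Alox15-/- 4, the difference was 0.11, and without WT 2 it was 0.46. The ratio of Cd8a to Cd8b1 was 0.816, 1.06, 0.681 and 0.313 in the libraries labelled Alox15-/- and 0.761, 0.740, 0.731 and 0.615 in those labelled WT. The WT libraries lay within the range of the other group, whose lowest value was again that of library 4.

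Both coreceptors were then divided by the summed counts of the CD3 genes Cd3d, Cd3e, Cd3g and Cd247, which encode the signalling chains of the T cell receptor, a ratio chosen after the values had been seen. Cd4 per CD3 count was 0.276, 0.201, 0.255 and 0.274 in the libraries labelled Alox15-/- and 0.319, 0.327, 0.340 and 0.370 in those labelled WT, with no overlap and a difference of -0.44 in the mean log2 ratio. The CD8 genes per CD3 count were 0.0200, 0.0166, 0.0201 and 0.0114 against 0.0292, 0.0210, 0.0329 and 0.0324, with a difference of -0.77. This separation rests on the denominator, since the summed CPM of the CD8 genes overlapped, at 21.4, 17.3, 21.8 and 12.02 CPM against 29.9, 21.3, 31.6 and 30.7 CPM. Cd3g itself was higher in every library labelled Alox15-/- (151 to 169 CPM) than in any WT library (110 to 139 CPM), as were 2.75% of all genes tested. It was 1 of 12 genes of T cell identity and was named after its values had been seen. The CD3 genes had log2 fold changes from -0.01 for Cd247 to 0.31 for Cd3g (adjusted p = 0.294 for Cd3g, edgeR), and 0 of the 12 genes of T cell identity passed the threshold.

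**Figure D3:**
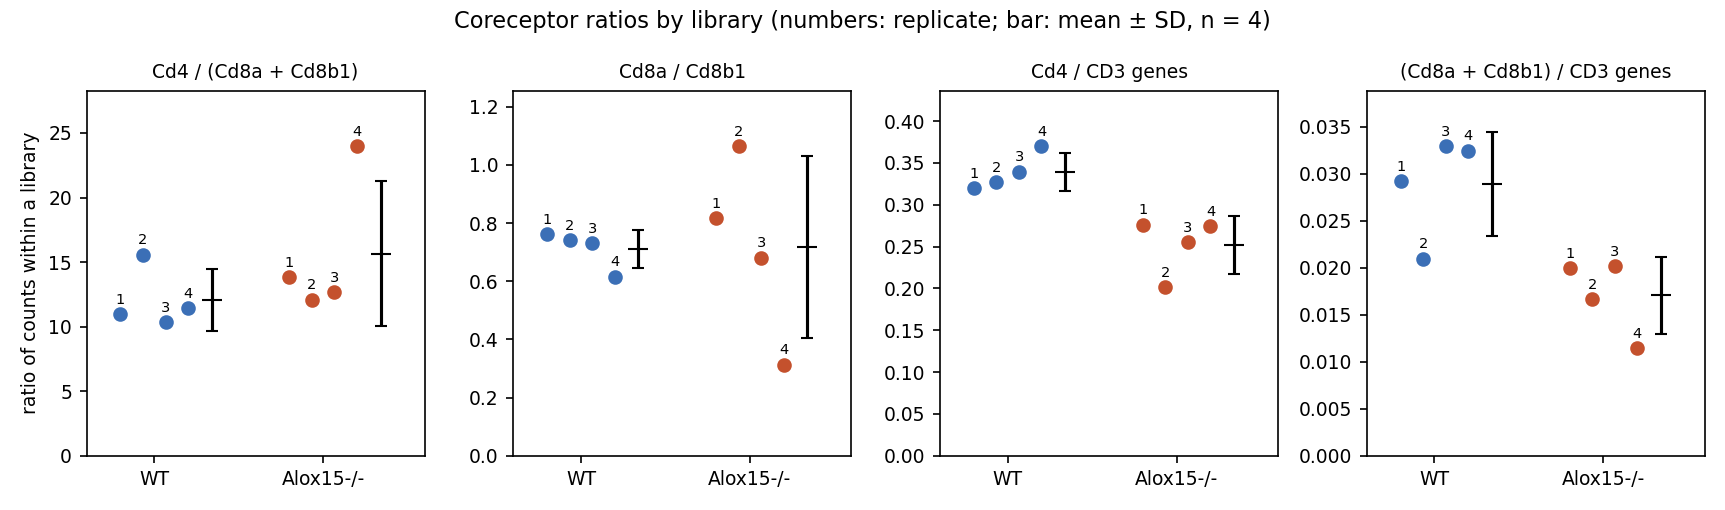
Ratios of counts within each library (y axes, no unit): Cd4 over the 2 CD8 genes, Cd8a over Cd8b1, Cd4 over the CD3 genes and the CD8 genes over the CD3 genes, with a point per library and its replicate number and bars for the mean and SD (n = 4). The groups overlap in the first 2 ratios, with 24.0 and 0.313 for the library labelled Alox15-/- 4, and are apart in both ratios to CD3, of which the CD8 one rests on the denominator.

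Zbtb7b, the gene of ThPOK, was at 75.4, 53.5, 69.2 and 75.0 CPM in the libraries labelled Alox15-/- and at 63.8, 74.6, 87.9 and 81.0 CPM in those labelled WT. The lowest value was again that of the library labelled Alox15-/- 2, and the groups overlapped between 63.8 and 75.4 CPM. The means were 68.3 ± 10.3 CPM and 76.8 ± 10.2 CPM (SD, n = 4 each), and the log2 fold change was -0.17 (95% interval -0.45 to 0.11, adjusted p = 0.823, edgeR). Where Zbtb7b is transcribed, GENCODE also places the antisense gene Gm15417, which was at 8.25 CPM and 5.90 CPM in the group means (log2 fold change 0.52, adjusted p = 0.762, edgeR). Whether counting used the strand is not given in the sources used here, so the tags of both cannot be told apart for certain, and the same holds for Runx1, Runx3 and Tox with their antisense genes.

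Tox was the regulator with the fewest tags. It was at 28.1, 19.7, 19.0 and 22.3 CPM in the libraries labelled Alox15-/- and at 22.1, 18.0, 18.7 and 31.5 CPM in those labelled WT, where library 4 was the highest of all. The means were 22.3 ± 4.14 CPM and 22.6 ± 6.23 CPM (SD, n = 4 each). The log2 fold change was -0.01 (95% interval -0.41 to 0.40, adjusted p = 0.998, edgeR), and the interval leaves room for differences in either direction.

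The DNA-binding RUNX subunits Runx1 and Runx3 were set side by side because they divide the lineage roles. Runx1 was at 90.3, 75.6, 62.3 and 73.0 CPM in the libraries labelled Alox15-/- and at 66.3, 60.4, 67.6 and 72.0 CPM in those labelled WT. Its means of 75.3 ± 11.6 CPM and 66.6 ± 4.80 CPM (SD, n = 4 each) gave a log2 fold change of 0.18 (95% interval -0.08 to 0.43, adjusted p = 0.782, edgeR), and 0.08 without the library labelled Alox15-/- 1, the highest of all. Runx1 was the regulator with the largest estimate, and its groups overlapped.

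Runx3, the factor of the CD8 lineage, varied more between libraries of a group than between groups. It was at 150.4, 178.2, 94.8 and 92.6 CPM in the libraries labelled Alox15-/- and at 152.2, 122.4, 147.9 and 78.9 CPM in those labelled WT. In both groups library 4 was the lowest, although libraries with the same number were not found to be paired. The means were 129 ± 42.3 CPM and 125 ± 33.6 CPM (SD, n = 4 each), with a log2 fold change of 0.03 (95% interval -0.44 to 0.49, adjusted p = 0.988, edgeR). The ratio of Runx1 to Runx3 counts was 0.601, 0.424, 0.657 and 0.788 in the libraries labelled Alox15-/- and 0.435, 0.493, 0.457 and 0.913 in those labelled WT, where library 4 was apart from the other 3.

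Cbfb encodes the non-DNA-binding partner that all RUNX proteins share. It was at 234.7, 270.2, 188.1 and 194.2 CPM in the libraries labelled Alox15-/- and at 234.9, 242.3, 215.0 and 167.6 CPM in those labelled WT. The highest library of the group labelled Alox15-/- and the lowest WT library were the same as for Runx3. The means were 222 ± 38.3 CPM and 215 ± 33.6 CPM (SD, n = 4 each), with a log2 fold change of 0.04 (95% interval -0.25 to 0.33, adjusted p = 0.970, edgeR).

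Among the 28 pairs of members, Runx3 and Cbfb had the highest correlation of log2 CPM over the 8 libraries, with Pearson's r of 0.916 (exact permutation p = 0.00246, 0.0688 after adjustment over the 28 pairs) and Spearman's rho of 0.833 (exact permutation p = 0.0154, 0.431 adjusted). Without the 2 libraries farthest from the median of the first gene named, here Runx3, r was 0.815. Within the groups of 4 it was 0.985 for the label Alox15-/- and 0.844 for WT. Such values are descriptions. Cd4 and Cd8b1 had r = 0.794 (0.105 after adjustment, exact permutation), with 0.599 when the farthest libraries were left out, 0.645 within the label Alox15-/- and 0.249 within WT. Cd8a and Cd8b1, the genes of the CD8 chains, had r = 0.694 (0.171 after adjustment, exact permutation), with 0.805, 0.424 and 0.875 in the same order. Cd4 and Zbtb7b had r = 0.778 (0.224 after adjustment, exact permutation), with 0.163, 0.995 and 0.229 in that order. No pair passed an adjusted p of 0.05, and all libraries share their culture and counting.

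**Figure D4:**
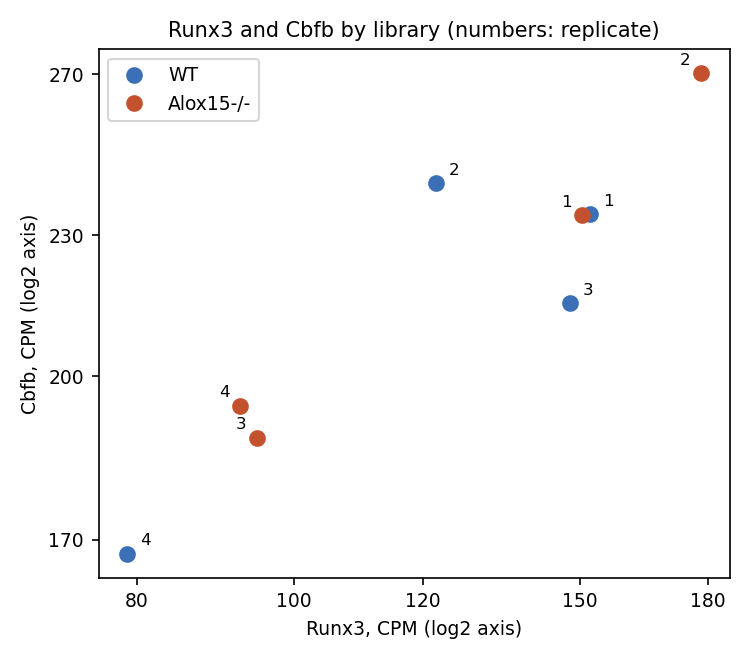
Cbfb level against Runx3 level (both CPM, TMM scaled, on log2 axes) with a point per library, coloured by group and carrying the replicate number. The library labelled Alox15-/- 2 is highest in both genes (178.2 and 270.2 CPM) and WT 4 lowest in both (78.9 and 167.6 CPM), with r = 0.916 on the log2 scale over the 8 libraries.

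The other genes of the lineage choice were taken from lists written by function. Of 18 further lineage regulators, such as Gata3, which promotes the CD4 lineage, and Patz1, which binds near Zbtb7b and the CD8 genes, 17 passed the filter, 0 passed the threshold in either direction, and their median log2 fold change was -0.12. The list leaned to negative values in 15 of 17, with the largest estimate in Tcf3, the gene of the E proteins E12 and E47 (-0.53, adjusted p = 0.122, edgeR), and -0.34 in Gata3. With the tested genes held fixed, Tcf3 passed without WT 4 (-0.60, adjusted p = 0.0389) and Gata3 without Alox15-/- 1 (-0.51, adjusted p = 0.0385), both by edgeR, and Tcf3 also passed without the filter (-0.55, adjusted p = 0.00280, edgeR). Over all genes tested, 6574 of 12700 were negative. Tcf7, the gene of TCF-1, had 1 to 8 counts per library and did not pass the filter. The list of relatives and corepressors of the RUNX proteins has 15 symbols for 14 genes, as Aes and Tle5 name the same gene, of which 11 were tested and 0 passed, with a median of -0.12. Among those tested, Runx2, the remaining RUNX gene, had the largest estimate, with 7.51 ± 2.24 CPM against 3.84 ± 0.820 CPM (SD, n = 4 each) and a log2 fold change of 0.93 (standard error 0.277, adjusted p = 0.212, edgeR), which passed without Alox15-/- 4 (1.14, adjusted p = 0.0448, edgeR). The corepressor gene Cbfa2t3 did not pass the filter, with 15, 19, 10 and 11 counts in the libraries labelled Alox15-/- and 0, 4, 1 and 0 counts in those labelled WT, and it passed the threshold without the filter (adjusted p = 1.30e-07, edgeR). Among the 9 relatives of Zbtb7b and Tox 6 were tested and 0 passed, and the largest estimate was 0.47 for Tox2 (adjusted p = 0.774, edgeR).

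Genes of the CD8 and cytotoxic programme, many of which RUNX3 regulates in CD8+ T cells, were read beside the CD8 chains. Of 18 genes 15 were tested, and 4 rose in the libraries labelled Alox15-/- while 0 fell. Among all genes tested 1.05% rose. The 4 were Gzmb, the protease granzyme B of cytotoxic granules (log2 fold change 2.74, adjusted p = 0.00106), Cst7, the cathepsin inhibitor cystatin F (1.47, adjusted p = 0.0238), Klrd1, the NK receptor subunit CD94 (1.36, adjusted p = 0.0278), and Itgae, the integrin CD103 (1.15, adjusted p = 0.00422), all by edgeR. Gzmb was at 1.09 to 1.71 CPM in the WT libraries and so passed the filter only through the other group, at 4.44 to 16.5 CPM. The median of the 15 was 1.06, and 13 were positive, with Ctsw at -0.05 and Fasl at -0.23. The sign of Fasl rested on WT 4, at 13.2 CPM beside 0.401 to 2.18 CPM in the other WT libraries, and without it the estimate was 1.35 (adjusted p = 0.310, edgeR). The CD8 chains themselves had estimates of -0.69 and -0.65, in the other direction. The count of 4 depended on single libraries, being 1 (Itgae) without the library labelled Alox15-/- 3, 2 without any 1 of Alox15-/- 1, Alox15-/- 2, WT 1 or WT 2, and 6 without WT 4. Itgae passed in each of the 17 alternative settings. Gzmb dropped below the filter whenever a library labelled Alox15-/- was left out, and with the tested genes held fixed it passed in all 8 such fits with Itgae, while the count ran from 2 to 6. Cst7 lost its call in 6 of these 8 fits (adjusted p = 0.0732 to 0.102) and Klrd1 in 5 of 8 (adjusted p = 0.0581 to 0.109), and Klrd1 also lost it with the replicate block, all by edgeR.

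**Figure D5:**
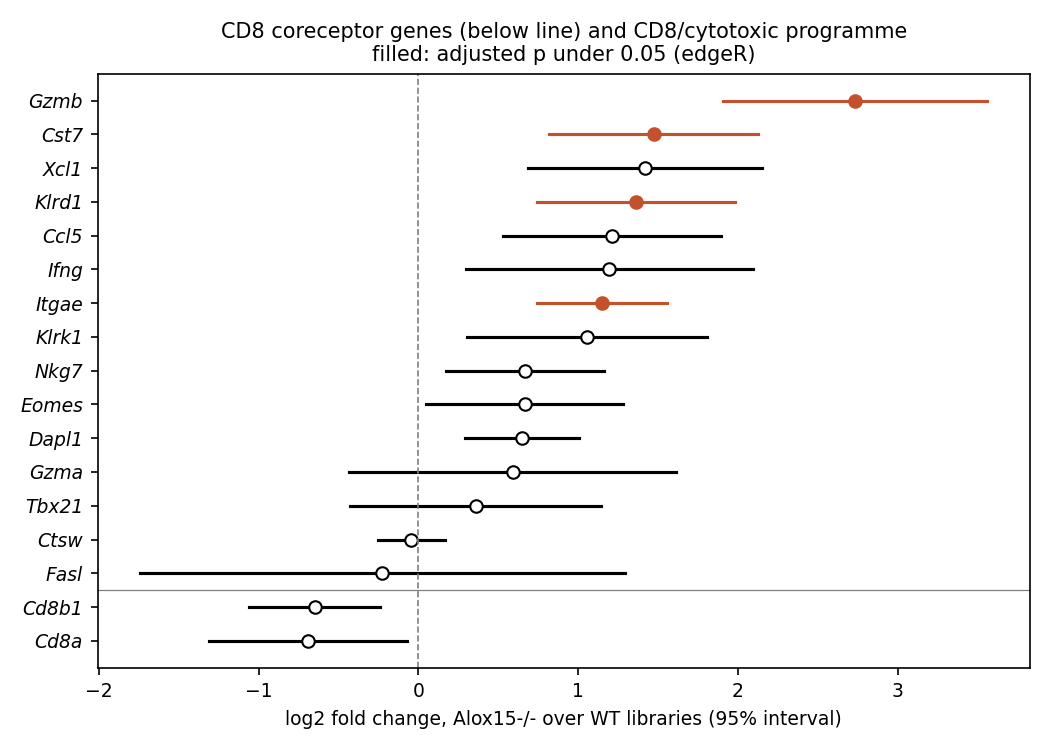
Log2 fold change (libraries labelled Alox15-/- over those labelled WT, edgeR, x axis) of the 15 tested genes of the CD8 and cytotoxic programme beside the 2 CD8 chains, with 95% intervals as lines and genes past the adjusted threshold marked. Gzmb is the largest at 2.74, and Cd8a and Cd8b1 lie at -0.69 and -0.65.

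Cells other than CD4+ T cells also express granzyme, CD94 and, in some types, CD8α, and markers of such cells were read although the negative selection is meant to remove them. Of 8 γδ T and NK cell markers 5 were tested and rose, namely 4 γδ T cell receptor genes and Tyrobp, an adaptor of NK and myeloid cells (Tyrobp 3.03, Tcrg-C1 2.10, Tcrg-C4 1.90, Trdc 1.82 and Tcrg-C2 1.31 in log2 fold change), with a summed level of 85.2 to 163 CPM in the libraries labelled Alox15-/- and 28.5 to 46.0 CPM in those labelled WT. The defining NK genes Ncr1 (0 to 3 against 0 to 6 counts per library), Klrb1c (2 to 13 against 1 to 11) and Klra8 (0 to 6 against 1 to 4) did not pass the filter. Markers past the threshold were 4 of 8 myeloid (31.1 to 275 against 4.72 to 10.4 CPM), 5 of 6 erythroid (902 to 3467 against 32.8 to 122 CPM) and 5 of 5 mast cell and basophil genes (99.5 to 296 against 25.9 to 44.7 CPM), all higher. These counts are partly set by the filter, since Fcgr3, S100a9, Alas2, Ms4a2 and Prss34 reached 2 CPM in no WT library, and without the filter 5 of 8, 5 of 6 and 5 of 5 passed. Dendritic cell markers summed to 3.29 to 6.75 CPM against 2.91 to 4.46 CPM, with 1 of 7 tested, 0 past the threshold, and Cd209a at 0 in 7 of the 8 libraries. B cell markers summed to 5.29 to 8.10 CPM against 7.64 to 19.9 CPM, and Ms4a1, the gene of CD20, fell by 2.64 on the log2 scale, having passed the filter only through WT. The other B cell marker tested, Cd79b, had 0.11 (adjusted p = 0.967, edgeR). The part of these cells in the levels of the coreceptor and cytotoxic genes was not tested.

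The label of CD4+ T cells and Tregs was read against T cell identity, helper and Treg genes. All 12 genes of T cell identity were tested and 0 passed, the largest estimate being -0.32 for Cd5 (adjusted p = 0.774, edgeR), and -0.01 without WT 4, at 234 CPM the highest. Of 7 genes of CD4 helper cells 5 were tested and 0 passed, with the largest estimate in Il2 (-0.65, adjusted p = 0.838, edgeR). WT 4 alone made this estimate negative, at 287 CPM beside 31.7 to 42.9 CPM in the other WT libraries and 33.5 to 76.4 CPM in those labelled Alox15-/-, and without it the estimate was 0.73 (adjusted p = 0.131, edgeR). Il21 did not pass the filter. Its counts were 6, 14, 1 and 2 in the libraries labelled Alox15-/- and 0, 1, 3 and 1 in those labelled WT. Without the filter Il21 had a positive log2 fold change (2.66, adjusted p = 0.0311, edgeR). The 6 Treg markers were all tested and 0 passed. Foxp3, present in all 8 libraries, had a log2 fold change of -0.42 (adjusted p = 0.655, edgeR), and -0.11 without WT 3, the highest at 194 CPM. Without the filter Foxp3 passed (-0.45, adjusted p = 0.0189, edgeR).

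The genes with the pattern most like that of a member were ranked by Pearson's r of log2 CPM over the 8 libraries, as a description. Those named have the highest r among all genes tested, and how high r runs by chance was not tested. For Cd4 they were Lad1 (0.962), Gm37599 (0.957) and 1700128A07Rik (0.953), and Lad1 had a log2 fold change of -0.50 (adjusted p = 0.433, edgeR). For Cd8a they were Eif4ebp2 (0.976), Gm20518 (0.957) and Copg2 (0.949), for Zbtb7b Tmem218 (0.987), Ephb6 (0.968) and Rubcn (0.964), and for Runx3 Pum2 (0.965), Chfr (0.964) and Ski (0.956).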

How the data were processed

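Tregs of day 2 were profiled by MACE-seq in 4 libraries labelled Alox15-/- and 4 labelled WT. The methods name the MACE-Seq Kit, the labels a small RNA kit. What the authors deposited is a table of raw counts by gene symbol, not normalized, made from reads trimmed and cleaned beforehand per the labels. The submitters' processing notes name Bowtie, edgeR and GRCm38, while the counting tool, strand and removal of duplicate reads are not given in the sources used here. Columns were matched to libraries by name. The table holds 28239 symbols, 2 of which occur more than once.

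A gene was tested if it reached 2 CPM in 4 or more libraries (12700 genes). The test used edgeR 4.0.16 in R 4.3.3: TMM scaling and its quasi-likelihood test with group as the only term, followed by Benjamini–Hochberg adjustment over all genes tested, at 0.05. The biological coefficient of variation was 14.5%. Standard errors are the log2 fold change divided by the square root of F. Permutation tests of the members' levels were run in R. Those of the correlations were run in Python 3.11.15, with pandas 2.3.3 and with ranks from scipy 1.17.1. Figures used matplotlib 3.10.9. The fit was tested on simulated data. Within groups the chi-square per gene between libraries was 4.54 to 16.5, so none was a duplicate. The alternatives were other scalings, other filters, DESeq2 1.42.0, limma-voom (limma 3.58.1), robust fits, a replicate block and each library left out. Leaving out 2 libraries together, leaving out libraries with the tested genes held fixed, every alternative for the count of the cytotoxic list, and the ratios to CD3 genes were chosen after the data had been seen.

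The members and lists were chosen with earlier results of these data known. The genes named are the members, Alox15, the genes of each list past the threshold (up to the 4 with the lowest p) or else its largest absolute log2 fold change, the nearest genes on either side of a member, and the 3 genes most like 4 of the members. Other named genes (Cd247, Cd3g, Gata3, Patz1, Tcf7, Ctsw, Fasl, Cd209a, Tcrg-C2, Cd79b, Cbfa2t3, Il21, Ncr1, Klrb1c, Klra8, Alas2, Aes, Tle5 and Gm15417) were named after their values had been seen.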

Additional observations from a re-analysis of the deposited data

Results flagged for a closer look

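Single libraries apart from the other 3 of their group were looked for with Dixon's ratio among the members, the 5 ratios given and the other named genes that passed the filter, and chance flags about 1 group in 20. In 11 of 138 groups 1 library was beyond the 95% limit. Among the members this was the Cd8a level of the library labelled Alox15-/- 4, at 2.86 CPM beside 8.84 to 9.61 CPM in the other 3. The same library had a Cd4 to CD8 ratio of 24.0, where the others had 12.1 to 13.8, and a Trdc level of 44.4 CPM beside 70.2 to 75.0 CPM. WT 4 had a Runx1 to Runx3 ratio of 0.913 beside 0.435 to 0.493, an Il2 level of 287 CPM beside 31.7 to 42.9 CPM, a Pum2 level of 163 CPM beside 205 to 213 CPM, a Mcpt8 level of 15.4 CPM beside 4.52 to 6.02 CPM and a Fasl level of 13.2 CPM beside 0.401 to 2.18 CPM. In WT 2 the Lag3 level was 35.8 CPM, beside 25.8 to 27.3 CPM. The library labelled Alox15-/- 2, the lowest for Cd4 and Zbtb7b, had a Cd5 level of 85.8 CPM, where its companions had 126 to 133 CPM. WT 3 had a Foxp3 level of 194 CPM beside 92.9 to 109 CPM.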

How the results depend on the processing

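Over 17 alternative settings Cd4 kept a negative log2 fold change (-0.37 to -0.19), as did Cd8a (-0.90 to -0.37), Cd8b1 (-0.77 to -0.50) and Zbtb7b (-0.25 to -0.04), and Runx1 a positive one (0.08 to 0.26). The unadjusted p was under 0.05 in 16 settings for Cd4, 14 for Cd8a and 17 for Cd8b1 (edgeR, DESeq2 or limma). Members past the threshold numbered 0 except without the filter on low counts, where Cd8b1 made 1. Estimates close to 0 changed sign. Tox was 0.022 with upper quartile scaling and 0.036 with limma-voom, Runx3 was -0.0022 with limma-voom, and with each library left out in turn Tox ran from -0.13 to 0.19, Runx3 from -0.16 to 0.16 and Cbfb from -0.065 to 0.12. With Alox15-/- 2 and WT 4 both left out, the estimates were 0.24, -0.33 and -0.16 for these 3 genes.

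Genes past the threshold numbered 388 without the filter, and 86 (without Alox15-/- 2) to 173 (without WT 4) with a library left out, with 95 without Alox15-/- 1, 93 without Alox15-/- 3 and 105 without WT 2. In the cytotoxic list 9 passed without the filter, 7 with DESeq2, 5 with limma-voom, and 1 to 6 with a library left out. The correlation of deviations between libraries with the same replicate number was -0.18 to 0.17, and 1 of 4 correlated best with its own number. These values gave no sign that the numbers pair the libraries, but so few correlations cannot exclude it. With the replicate number as a block 146 genes passed (Cd8b1 -0.66, adjusted p = 0.159, edgeR), among them 3 of the cytotoxic list. Cd8a rested on the fewest counts of the members, 469, and its log2 fold change went from -0.69 to -0.37 without Alox15-/- 4.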

Other observations

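Genes beside the members on the chromosome gave further values. Lag3, which lies 16139 bp from Cd4 and encodes a CD4-like receptor for MHC class II, had a log2 fold change of 0.54 (adjusted p = 0.179, edgeR), where Cd4 had -0.32. Rmnd5a beside Cd8a had -0.13, Smyd1 beside Cd8b1 0.44, Clic4 beside Runx3 0.02 and D230025D16Rik beside Cbfb -0.04, and 0 of these 5 neighbours passed the threshold in edgeR's test.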
